A study of Mus musculus with 15 samples.

Results

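GFI1-KD HSCs were compared with GFI1-KI HSCs gene by gene, in 6 of the 15 bulk RNA-seq libraries of the series. The 6 libraries were chosen by their labels alone, 3 of GFI1-KD mice and 3 of GFI1-KI mice, and every one of them was used. GFI1-KD mice (genotype KD/KD) carry human GFI1 in place of murine Gfi1 and express it at a small fraction of the normal level. GFI1-KI mice (genotype KI/KI, also named GFI1-36S) express human GFI1 from the murine locus without that reduction, so that both genotypes have the human gene in place of the murine one. Gfi1-KO mice, which have lost Gfi1, Gfi1-WT mice with the murine gene, and GFI1-36N mice with a variant human GFI1 made up the other 9 libraries. All mice were untreated, and the labels give neither age nor sex. HSCs had been sorted from bone marrow by the gate Lin-, Sca1+, c-Kit+, CD150+ and CD48-. Whether a library came from 1 mouse or from a pool is not given in the sources used here, so p values measure the spread between libraries, which may in part be technical.

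GFI1 is a zinc finger repressor. It binds DNA at sites with an AATC core and recruits histone demethylases and deacetylases, and in HSCs it is known for restraining cell division and for directing the choice between granulocytic, monocytic and lymphoid fates. GFI1-KD compared to GFI1-KI HSCs addresses which genes differ at a lowered dose of human GFI1. The measure used below is CPM, the estimated counts of a gene after TMM scaling of all libraries to a common total. Log2 fold changes are GFI1-KD minus GFI1-KI, with a positive value for a higher level in GFI1-KD. P values are from edgeR's quasi-likelihood F test over all 13358 genes that passed a filter on low counts, out of 35533 in the table.

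Libraries held 16.71 to 20.24 M estimated counts in GFI1-KD and 17.98 to 19.98 M in GFI1-KI, with 11631 to 14393 and 12375 to 15125 genes above 0. Spearman correlations were 0.701 to 0.827 among GFI1-KD libraries, 0.704 to 0.82 among GFI1-KI libraries and 0.658 to 0.878 between a library of each, with medians of 0.703, 0.764 and 0.742. Defining genes of HSCs were present in all 6 libraries, with a summed level of 11 markers of 1990 to 3110 CPM in GFI1-KD and 2860 to 3120 CPM in GFI1-KI. Murine Gfi1 was read at 0, 0 and 267 estimated counts in GFI1-KD replicates 1, 2 and 3 and at 0, 126 and 31.2 in GFI1-KI (two-sided exact permutation test, p = 1; 0.1 is the smallest p that 3 against 3 allow). The mouse cDNA set holds no human GFI1, so that these values do not check the dose of the human gene. Murine Gfi1 did not follow the labels elsewhere either, at 4.85, 0 and 0 estimated counts in Gfi1-WT and 105, 54.5 and 0 in Gfi1-KO. At such low counts the gene checks no genotype of the series. Y-linked genes split the GFI1-KD libraries. Eif2s3y, a Y-linked gene of the initiation factor eIF2, was at 77.5, 0.0481 and 160 CPM in GFI1-KD and at 0 in all GFI1-KI libraries, and Ddx3y at 53.7, 0 and 127 CPM in GFI1-KD and at most 0.215 CPM in GFI1-KI. GFI1-KD replicate 2 was thus at the level of the GFI1-KI libraries in these genes, and its value is given with the others for each gene below. Among the 6 libraries, these Y-linked genes were well above 0 in GFI1-KD replicates 1 and 3 alone. The sex of the donors, which the labels do not give, may thus differ in part with genotype. The part of this split in the differences was not tested. GFI1-KI replicate 2 stood apart in granulocyte genes, with Mpo at 839 CPM against 0 in the other GFI1-KI libraries.

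At an adjusted p of 0.05, edgeR called 0 genes (0% of those tested) and limma-trend 0, while DESeq2 called 163, of which 138 had no count in any library of 1 genotype. At an unadjusted p under 0.05 edgeR gave 132 genes higher (0.988%) and 201 lower (1.5%) in GFI1-KD, together 333 (2.49%), of which 27 were under 0.01 (0.202%). All 3 libraries of GFI1-KD lay outside the range of GFI1-KI for 1214 genes (9.09%), above it for 540 (4.04%) and below it for 674 (5.05%). All genes named below had an adjusted p of 1 from edgeR unless another is given. The precision depended strongly on the level of a gene. Below 10 CPM, 66% of 4932 genes had a library at 0 and standard errors of the log2 fold change had a median of 2.41. Among 2201 genes from 100 to 1000 CPM only 0.818% had such a library and this median was 0.48, and for 91 genes above 1000 CPM it was 0.2. Genes of at least 100 CPM are therefore described first, and genes that were near 0 in 1 genotype separately.

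**Figure D1:**
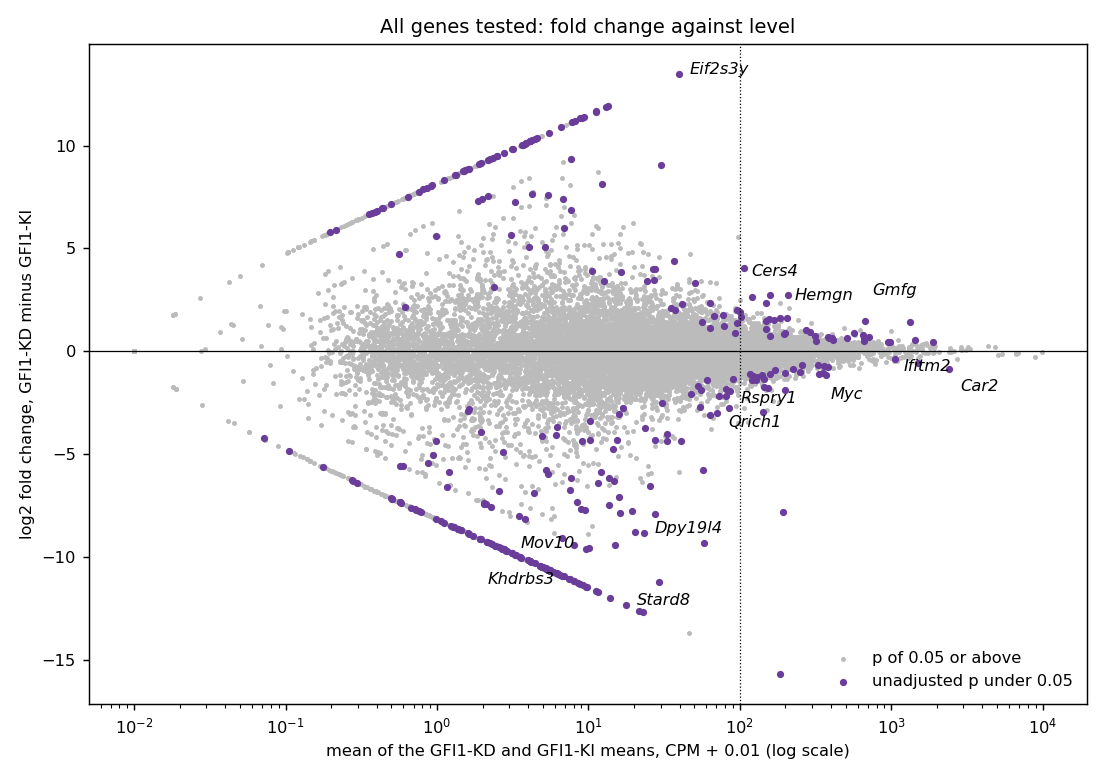
Log2 fold change (GFI1-KD minus GFI1-KI, vertical axis) of the 13358 genes tested against the mean of the means of both genotypes in CPM + 0.01 (log axis). Purple points are the 333 genes at an unadjusted p under 0.05, the dotted line marks 100 CPM, and the slanted edges are genes at 0 in all libraries of 1 genotype, whose fitted fold depends on the prior count. Fold changes narrow to the right, where Gmfg, Car2, Ifitm2 and Myc lie.

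Promoter sequence is shown for Gmfg, the gene with the lowest p, and for Muc13 and Rspry1, which were higher and lower in GFI1-KD and in Gfi1-KO libraries than in all others. Each stretch is the 250 bases before a RefSeq start on GRCm38.p6, read 5′ to 3′ on the strand of the gene, and capitals mark AATC or its complement GATT, the GFI1 core. The windows lie on the + strand at chr7:28437219-28437468 for Gmfg, chr16:33793787-33794036 for Muc13 and chr8:94601691-94601940 for Rspry1.
Gmfg: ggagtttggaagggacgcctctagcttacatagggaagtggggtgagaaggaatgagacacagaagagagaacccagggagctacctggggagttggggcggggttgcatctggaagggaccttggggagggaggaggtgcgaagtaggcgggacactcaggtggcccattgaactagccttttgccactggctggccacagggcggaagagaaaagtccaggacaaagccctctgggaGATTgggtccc
Muc13: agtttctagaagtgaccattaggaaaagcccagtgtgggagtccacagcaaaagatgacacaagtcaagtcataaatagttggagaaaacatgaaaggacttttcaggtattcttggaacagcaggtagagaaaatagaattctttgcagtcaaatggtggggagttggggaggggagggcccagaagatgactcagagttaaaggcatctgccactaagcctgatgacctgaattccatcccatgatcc
Rspry1: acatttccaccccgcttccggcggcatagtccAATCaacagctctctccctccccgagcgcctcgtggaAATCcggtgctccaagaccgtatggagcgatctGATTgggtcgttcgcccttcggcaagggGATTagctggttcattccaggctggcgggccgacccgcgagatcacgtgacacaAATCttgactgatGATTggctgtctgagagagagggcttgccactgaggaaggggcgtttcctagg
The core occurred 1 time before Gmfg, not at all before this start of Muc13 and 6 times before Rspry1. A further RefSeq start of Muc13 (chr16:33794239-33794488) and one of Gmfg (chr7:28440687-28440936) each held it 1 time in these windows before the start. Of the 26 genes with the lowest p described below, 20 matched the promoter table, and 12 of these held an AATC in at least 1 promoter (13 of 27 promoters), against 69% of 32851 promoters of the same length. AAATCA was in none of their promoters, against 12.4% of all, and TAAATCAC in none, against 0.514%. Both strands were searched, and the longer words contain the shorter. A match is a description of the letters in the window and not a binding site.

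By p, Gmfg came first among all genes tested. It encodes glia maturation factor gamma, a protein of blood cells that takes apart branched actin filaments at the Arp2/3 complex. Gmfg (ENSMUSG00000060791) lies on chromosome 7 of GRCm38 from 28437447 to 28448233. It was at 1130, 959 and 885 CPM in GFI1-KD replicates 1, 2 and 3 and at 383, 355 and 321 CPM in GFI1-KI. The lowest GFI1-KD library was thus well above the highest GFI1-KI library, and GFI1-KD replicate 2, the one near 0 for Y-linked genes, lay in the middle of its genotype. The log2 fold change was 1.49 (standard error 0.23, 95% interval 1 to 1.98), with an adjusted p of 0.243 from edgeR. Its adjusted p was 0.091 in limma-trend and 7.33e-06 in DESeq2, where it had rank 61 by p. In edgeR the adjusted p was 0.612 with median-ratio scaling and 0.847 or above with any 1 library left out. It was also above 0.243 in the fit of the 6 libraries alone and with the replicate block. The log2 fold change was 1.38 to 1.56 under all alternatives. The main coding transcript carried the difference, at 12500, 13100 and 11700 estimated counts in GFI1-KD and 4760, 5260 and 4050 in GFI1-KI. An intron-retaining transcript followed it, at 2920, 3690 and 3090 estimated counts in GFI1-KD and 1260, 1700 and 1300 in GFI1-KI.

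The 8 higher genes of at least 100 CPM with the lowest p and no overlap between genotypes were Gmfg, Cers4, Eif3c, Ifitm2, F11r, Tspan32, Hemgn and Muc13, chosen from 158 of 2292 genes at this level that did not overlap on the higher side (6.89%). Tspan32, a tetraspanin of blood cells (chromosome 7, 143005046 to 143019644), was at 976, 814 and 698 CPM in GFI1-KD and 436, 524 and 455 CPM in GFI1-KI, a log2 fold change of 0.81 (standard error 0.26). Muc13, a transmembrane mucin (chromosome 16, 33794037 to 33819934), was at 844, 653 and 714 CPM in GFI1-KD and 408, 331 and 443 CPM in GFI1-KI (log2 fold change 0.90, standard error 0.30). In both genes the libraries of a genotype lay close together. F11r, the junctional adhesion molecule JAM-A (chromosome 1, 171437535 to 171464603), was at 354, 93.1 and 172 CPM in GFI1-KD and 8.73, 49.4 and 41.6 CPM in GFI1-KI (log2 fold change 2.63, standard error 0.80). Its spread within GFI1-KD was wide, with replicate 1 the highest.

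Ifitm2 had the smallest spread of these genes. It encodes an interferon-induced transmembrane protein that restricts the entry of viruses, and its sequence is close to that of other Ifitm genes, so that reads may be shared between them. Ifitm2 (chromosome 7, 140954837 to 140955987) was at 1140, 1140 and 1110 CPM in GFI1-KD and 869, 777 and 816 CPM in GFI1-KI (log2 fold change 0.46, standard error 0.13). Here GFI1-KI was the genotype that stood apart, below all 12 other libraries of the series, and the 9 libraries of the other genotypes ran from 915 to 1260 CPM. Set against Gfi1-WT instead, GFI1-KD had a log2 fold change of 0.06. Eif3c, a subunit of the initiation factor that prepares ribosomes for translation (chromosome 7, 126546455 to 126566411), showed the same arrangement, at 322, 442 and 411 CPM in GFI1-KD and 250, 249 and 195 CPM in GFI1-KI, against 259 to 571 CPM in the other 9 libraries. Its log2 fold change was 0.76 (standard error 0.22) and 0.24 with Gfi1-WT as the control.

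Cers4, which encodes a ceramide synthase (chromosome 8, 4493026 to 4531680), was at 564, 111 and 152 CPM in GFI1-KD and 20.5, 67.3 and 34.1 CPM in GFI1-KI (log2 fold change 2.76, standard error 0.76). The excess was not in its coding transcript. That transcript was at 363, 432 and 114 estimated counts in GFI1-KD and 176, 550 and 378 in GFI1-KI, which overlap, whereas an intron-retaining transcript was at 4620, 1480 and 1840 in GFI1-KD and 538, 822 and 805 in GFI1-KI. Hemgn, a nuclear protein of blood progenitors (chromosome 4, 46393989 to 46413506), was at 360, 183 and 163 CPM in GFI1-KD and 54.3, 90.3 and 89.2 CPM in GFI1-KI (log2 fold change 1.59, standard error 0.54). In Cers4, F11r and Hemgn replicate 1 was the highest GFI1-KD library, and without it their log2 fold changes were 1.69, 1.99 and 1.15. With Gfi1-WT as the control they were 0.89, 0.64 and 0.78, and that of Tspan32 was 0.37.

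**Figure D2:**
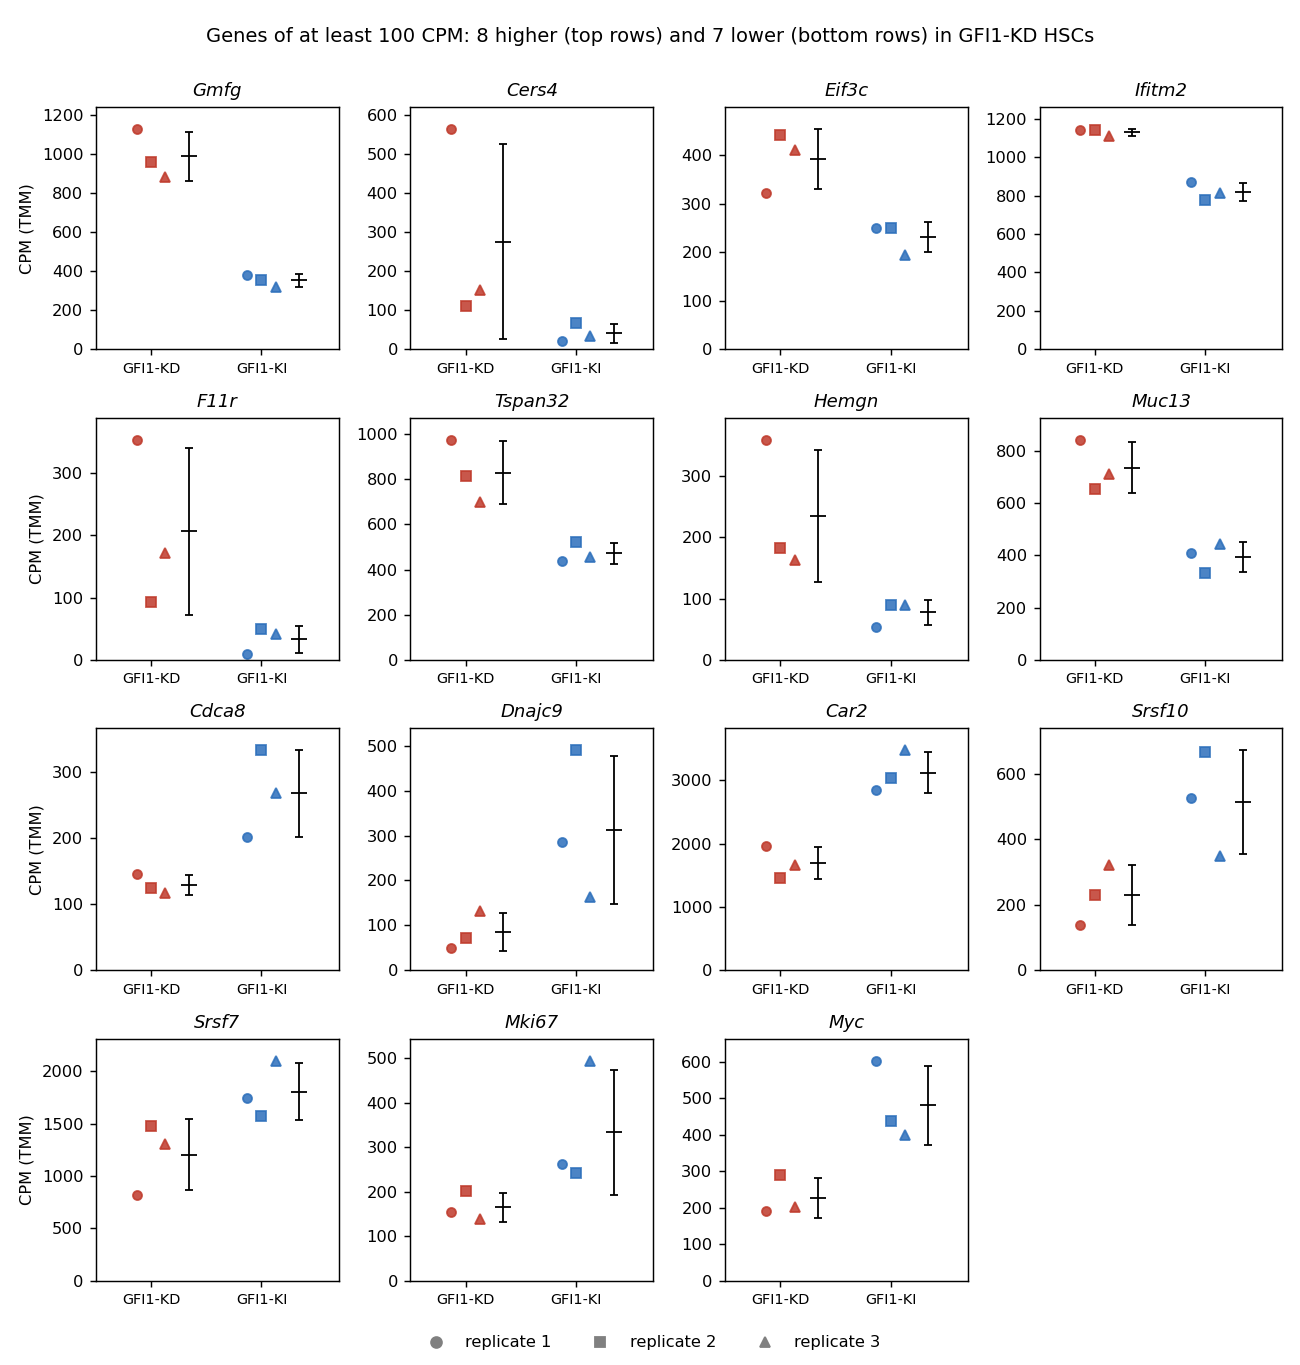
CPM (TMM-scaled, linear axes from 0) of 15 of the 16 genes of at least 100 CPM with the lowest p and no overlap, GFI1-KD left (red) and GFI1-KI right (blue). Symbols are the 3 libraries of each genotype, and the bar beside them is the mean ± SD. The top 8 panels are genes higher in GFI1-KD, among them Gmfg with no GFI1-KD library below 885 CPM and no GFI1-KI library above 383 CPM, and the 7 others are genes lower in GFI1-KD.

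On the lower side, Car2 was the gene with the highest level. It encodes carbonic anhydrase 2, an enzyme of red cells and of their progenitors that is also made in HSCs. Car2 (ENSMUSG00000027562, chromosome 3, 14886273 to 14900770) was at 1970, 1460 and 1660 CPM in GFI1-KD and 2850, 3040 and 3480 CPM in GFI1-KI (log2 fold change −0.88, standard error 0.27, 95% interval −1.47 to −0.29). The genotypes did not overlap, nor did they in its coding transcript, at 33300, 30200 and 31500 estimated counts in GFI1-KD and 53600, 62000 and 64700 in GFI1-KI. At this level 120 of 2292 genes did not overlap on the lower side (5.24%).

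Myc, the transcription factor that drives growth and division (chromosome 15, 61985391 to 61990374), was at 190, 290 and 202 CPM in GFI1-KD and 603, 438 and 400 CPM in GFI1-KI (log2 fold change −1.08, standard error 0.41). Dnajc9, a chaperone of histones H3 and H4 (chromosome 14, 20384638 to 20388910), was at 49.2, 72.9 and 131 CPM in GFI1-KD and 285, 490 and 163 CPM in GFI1-KI (log2 fold change −1.89, standard error 0.58). In both genes the gap between the nearest libraries of the 2 genotypes was smaller than the spread within GFI1-KI. With Gfi1-WT as the control, the log2 fold change of Myc was −0.63. Cdca8 and Mki67, genes of dividing cells, were lower as well, at log2 fold changes of −1.05 and −1.02. Of all genes tested, 1.5% were lower at an unadjusted p under 0.05 and 5.05% lower without overlap. The G2/M and mitosis list, with 54 members tested, had 8 higher and 46 lower in GFI1-KD (median −0.53). Of its members, 3 were lower at that p and 12 lower without overlap. The median was −0.67 to −0.45 with 1 library left out in turn and −0.11 with Gfi1-WT as the control, values that were computed after these counts were seen.

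A pair of splicing factors of the SR family completed the lower side. Srsf10 (chromosome 4, 135855747 to 135869908) was at 137, 230 and 320 CPM in GFI1-KD and 525, 666 and 349 CPM in GFI1-KI (log2 fold change −1.16, standard error 0.38, and −0.63 with Gfi1-WT as the control). Srsf7 (chromosome 17, 80200080 to 80207307) was at 822, 1480 and 1310 CPM in GFI1-KD and 1740, 1570 and 2100 CPM in GFI1-KI (log2 fold change −0.58, standard error 0.19), and −0.13 with Gfi1-WT as the control. The Srsf7 transcripts did not all follow the gene. The intron-retaining ENSMUST00000235036, picked after its values were seen, was at 563, 1760 and 2820 estimated counts in GFI1-KD and was listed at 0 in all GFI1-KI libraries. Transcript values are estimates that divide shared reads between overlapping models.

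Genes read in 1 genotype and near 0 in the other were found on both sides, at low levels. Of all 35533 genes, before the filter on low counts, 13 had no count in GFI1-KD and at least 10 estimated counts in each GFI1-KI library, and 8 the other way round. At 50 counts these were 6 and 1. Khdrbs3, an RNA-binding regulator of splicing (chromosome 15, 68928420 to 69101211), was listed at 0 in GFI1-KD and at 22.4, 6.83 and 15.1 CPM in GFI1-KI (at least 91.6-fold lower in GFI1-KD by its mean, taking 3 counts per library as the floor). Folds given as at least set the mean of the genotype with counts against that floor. They cover counting error and not the spread between libraries, so that the true fold may be far smaller. For Khdrbs3 the 95% interval of the log2 fold change, which covers that spread, was −17.05 to −5.08. Khdrbs3 was at 0 in 1 Gfi1-KO library and at 9.68, 5.5 and 7.62 CPM in Gfi1-WT, so that GFI1-KD was not the sole genotype with a library at 0. Dpy19l4, a member of the DPY19 family (chromosome 4, 11261315 to 11322137), was at 0.185, 0 and 0.103 CPM in GFI1-KD and 54.4, 30.6 and 54.8 CPM in GFI1-KI (log2 fold change −8.85, standard error 1.79). Among the other genotypes Dpy19l4 was at 0.125 to 10.4 CPM in GFI1-36N, 17.6 to 20.8 CPM in Gfi1-KO and 46.5 to 113 CPM in Gfi1-WT, so that its level varied between all of them.

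Mov10, an RNA helicase that restrains retroelements (chromosome 3, 104794836 to 104818563), was at 0.0615, 0 and 0 CPM in GFI1-KD and 45.2, 10.4 and 5.06 CPM in GFI1-KI (log2 fold change −9.59, standard error 2.82). Hspbap1 was at 0, 0.144 and 0.361 CPM in GFI1-KD and 48.3, 9.89 and 58.1 CPM in GFI1-KI (log2 fold change −7.78, standard error 2.34), and 3 of the other 9 libraries were within the GFI1-KD range. Both genes covered a wide range within GFI1-KI. Stard8, an X-linked gene (99003248 to 99074728), was listed at 0 in GFI1-KD and at 75, 5.11 and 26 CPM in GFI1-KI (at least 219-fold lower in GFI1-KD by its mean, 95% interval of the log2 fold change −19.63 to −5.01), but 5 of the other 9 libraries were at 0 too. Prkar1b, a regulatory subunit of protein kinase A, was listed at 0 in GFI1-KD and at 1.87, 3.2 and 7.7 CPM in GFI1-KI (at least 26.4-fold lower by its mean, 95% interval −14.31 to −4.23), and at 0 in all of the other 9. For Stard8 and Prkar1b, GFI1-KI was therefore the unusual genotype. Nearly all Prkar1b counts were of a processed transcript that codes for no protein, at 33.5, 66.7 and 147 estimated counts in GFI1-KI.

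Ighm and Prkaa2 were the other genes listed at 0 in GFI1-KD that were described. Ighm, the heavy chain of immunoglobulin M, was at 31.3, 79 and 19.4 CPM in GFI1-KI (at least 268-fold lower in GFI1-KD by its mean). Its 95% interval of the log2 fold change over libraries was −24.02 to −1.2. Among the other 9 libraries Ighm was above 0 in 1, a Gfi1-KO library at 1190 CPM. Of 6 B cell markers Pax5 was at 0 in all 6 libraries, and the summed level of the markers was 1200 to 1390 CPM in GFI1-KD and 1090 to 1310 CPM in GFI1-KI, most of it Ebf1. Their part in the Ighm difference was not tested. Prkaa2, the catalytic subunit alpha 2 of AMP-activated protein kinase, was at 13.2, 5.02 and 7 CPM in GFI1-KI (at least 52.1-fold lower in GFI1-KD by its mean). Its 95% interval was −19.48 to −1.02.

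Qrich1 and Rspry1 were low but not absent in GFI1-KD. Qrich1 (chromosome 9, 108516806 to 108560163) was at 3.51, 24.8 and 19 CPM in GFI1-KD and 138, 72.1 and 169 CPM in GFI1-KI (log2 fold change −3, standard error 0.88). All GFI1-KD libraries were below all 12 other libraries, the lowest of which was a Gfi1-KO library at 27.7 CPM. Rspry1, a protein with a RING finger and a SPRY domain (chromosome 8, 94601937 to 94660275), was at 9.47, 28.5 and 49.8 CPM in GFI1-KD and at 136, 134 and 127 CPM in GFI1-KI (log2 fold change −2.18, standard error 0.64). Its GFI1-KI libraries were within a narrow range.

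On the other side, Epb41l1, a membrane skeleton protein of the band 4.1 family, was at 15.4, 33.3 and 4.53 CPM in GFI1-KD and listed at 0 in GFI1-KI (at least 114-fold higher in GFI1-KD by its mean, 95% interval of the log2 fold change 1.4 to 21.25). Rab6b, a small GTPase of Golgi transport, was at 33.6, 2.07 and 10.8 CPM in GFI1-KD (at least 100-fold higher by its mean, 95% interval 2.35 to 19.92). Plekhf1, an endosomal protein, was at 14.1, 17 and 1.44 CPM in GFI1-KD (at least 70.1-fold higher by its mean, 95% interval 1.15 to 20.1). Both were at 0 in GFI1-KI. Each of these genes was also at 0 in 4 to 7 of the other 9 libraries, and within or above its GFI1-KD range in at least 1 of them. The pseudogene Akt2-ps was at 2.28, 1.88 and 1.24 CPM in GFI1-KD and 0 in GFI1-KI (at least 11.6-fold higher), and its GFI1-KD libraries were above all 12 others, with at most 0.171 CPM elsewhere. A pseudogene can take reads of its parent gene, so that this assignment is uncertain. Eif2s3y was at least 510-fold higher in GFI1-KD by its mean, which rests on replicates 1 and 3.

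**Figure D3:**
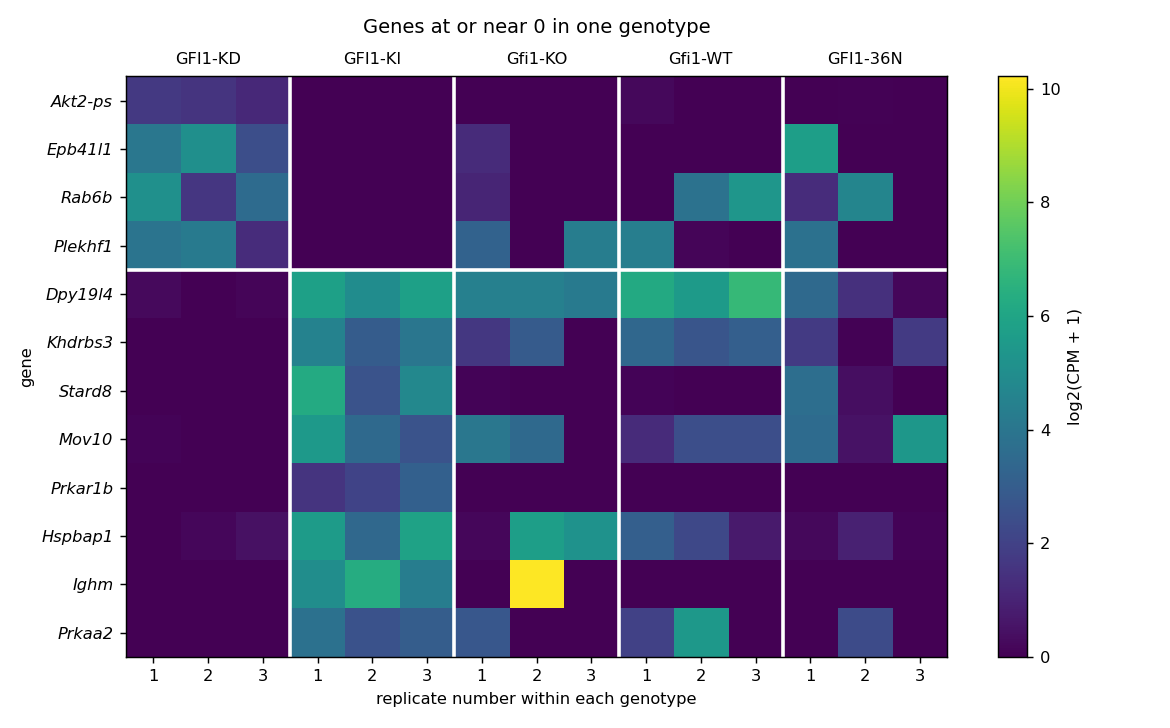
Levels of 12 genes as log2(CPM + 1) (colour scale) in all 15 libraries, with GFI1-KD at the left and GFI1-KI next to it. Rows above the horizontal line are listed at 0 in all GFI1-KI libraries, and rows below it are at or near 0 in all GFI1-KD libraries. Prkar1b is above 0 in GFI1-KI alone, while most other genes are also at 0 in some libraries of the remaining genotypes.

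The other genotypes show which of the 2 genotypes stood apart. Of all genes tested, 24 had all GFI1-KD libraries above all 12 others (0.18%) and 6 below (0.0449%), and 21 had all GFI1-KI libraries above (0.157%) and 9 below (0.0674%). Among genes of at least 100 CPM, these were 4, 1, 1 and 8, and those named from them here beside Ifitm2 and Eif3c were picked after their values were seen. GFI1-KD was highest for Cse1l, the export receptor of importin alpha, at 512, 302 and 288 CPM in GFI1-KD and 113, 149 and 278 CPM in GFI1-KI, with at most 286 CPM in the other 9 libraries, so that the nearest libraries were almost level. The RNA helicase Ddx41, Atxn1 and the RNA-binding protein Elavl1 were the others, with log2 fold changes of 0.81, 2.36 and 1.28 (standard errors 0.41, 1.31 and 1.25). None of these 3 was at an unadjusted p under 0.05 in edgeR. Atxn1 was at 680, 124 and 123 CPM in GFI1-KD, with up to 117 CPM in the other 9 libraries. Its log2 fold change was as low as 1.03 with 1 library left out. GFI1-KD was lowest for Phactr2, a regulator of actin and of protein phosphatase 1, at 188, 326 and 245 CPM in GFI1-KD and 409, 395 and 398 CPM in GFI1-KI (log2 fold change −0.66). GFI1-KI was highest for Ubxn4, at 109, 136 and 146 CPM in GFI1-KD and 289, 153 and 155 CPM in GFI1-KI.

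For 8 genes GFI1-KI was the lowest genotype. The largest log2 fold change among them was that of Serpina3g, a serine protease inhibitor of HSCs and activated leukocytes, at 2450, 1950 and 1410 CPM in GFI1-KD and 663, 575 and 923 CPM in GFI1-KI (log2 fold change 1.43, standard error 0.50), with 929 to 5540 CPM in the other 9 libraries. The nearest of those was thus almost level with GFI1-KI replicate 3. Prr13 was at 983, 727 and 928 CPM in GFI1-KD and 677, 549 and 392 CPM in GFI1-KI, and Psmb2, a catalytic-core subunit of the proteasome, at 405, 374 and 336 CPM in GFI1-KD and 255, 278 and 261 CPM in GFI1-KI. With Gfi1-WT as the control, the log2 fold change was 0.86 for Serpina3g, 0.14 for Prr13 and −0.25 for Psmb2.

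Gfi1-KO minus Gfi1-WT shares no library with GFI1-KD minus GFI1-KI and was set beside it after the data were seen. There too edgeR called 0 genes at an adjusted p of 0.05 (0%), and 410 were at an unadjusted p under 0.05 (3.07%). The genotypes did not overlap for 1195 genes (8.95%). Gmfg was at 593, 916 and 651 CPM in Gfi1-KO and 338, 397 and 367 CPM in Gfi1-WT (log2 fold change 0.97, standard error 0.23, adjusted p = 1). Car2 was at 1600, 978 and 1560 CPM in Gfi1-KO and 3940, 5000 and 2070 CPM in Gfi1-WT (log2 fold change −1.41, standard error 0.28, adjusted p = 1). In both genes the libraries of Gfi1-KO and Gfi1-WT did not overlap, in the direction seen in GFI1-KD. Of the 16 genes of at least 100 CPM that the rule selects, 9 had the same sign in both comparisons and 5 did not overlap in the same direction, which were Gmfg, Muc13, Dnajc9, Car2 and Myc. Over all genes tested, whatever their level, 4.04% did not overlap on the higher and 4.9% on the lower side in this comparison. The share among genes of at least 100 CPM was not computed for it. In GFI1-KD compared to GFI1-KI that share was 6.89% higher and 5.24% lower, against 4.04% and 5.05% over all genes. The log2 fold change was 0.61 for Muc13, −0.99 for Dnajc9 and −0.79 for Myc in Gfi1-KO. Srsf7 was higher in Gfi1-KO, with a log2 fold change of 0.32 and no overlap, and lower in GFI1-KD. Eif3c was lower in Gfi1-KO, with a log2 fold change of −0.25 and no overlap, and higher in GFI1-KD.

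Taking GFI1-KD and Gfi1-KO libraries as 1 set of 6, 6 genes lay above all libraries of the other genotypes (0.0449%) and 2 below (0.015%). Below were Car2 and Rspry1, which was at 68.8, 29.6 and 74.4 CPM in Gfi1-KO and 96.2, 109 and 75 CPM in Gfi1-WT, so that the nearest libraries were almost equal. Above was Muc13, at 646, 735 and 752 CPM in Gfi1-KO and 646, 509 and 239 CPM in Gfi1-WT, again with nearly equal nearest libraries. Itgb2, the beta 2 chain of leukocyte integrins, was also above, at 136, 93.5 and 172 CPM in GFI1-KD and 16.5, 60.1 and 65 CPM in GFI1-KI, and 86.6, 85.4 and 113 CPM in Gfi1-KO and 39.8, 0.116 and 58.7 CPM in Gfi1-WT. Tspo, a protein of the outer mitochondrial membrane, was at 308, 270 and 218 CPM in GFI1-KD and 199, 181 and 138 CPM in GFI1-KI, and 230, 394 and 284 CPM in Gfi1-KO and 101, 174 and 112 CPM in Gfi1-WT. The others were Lamtor4, a part of the Ragulator complex on lysosomes, Dhps, the enzyme that starts hypusine formation on eIF5A, and Rnpepl1, with log2 fold changes of 0.89, 1.63 and 2.90 in GFI1-KD compared to GFI1-KI. Apart from Muc13, these genes above were not at an unadjusted p under 0.05 in GFI1-KD compared to GFI1-KI, and all 6 were picked by their separation.

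**Figure D4:**
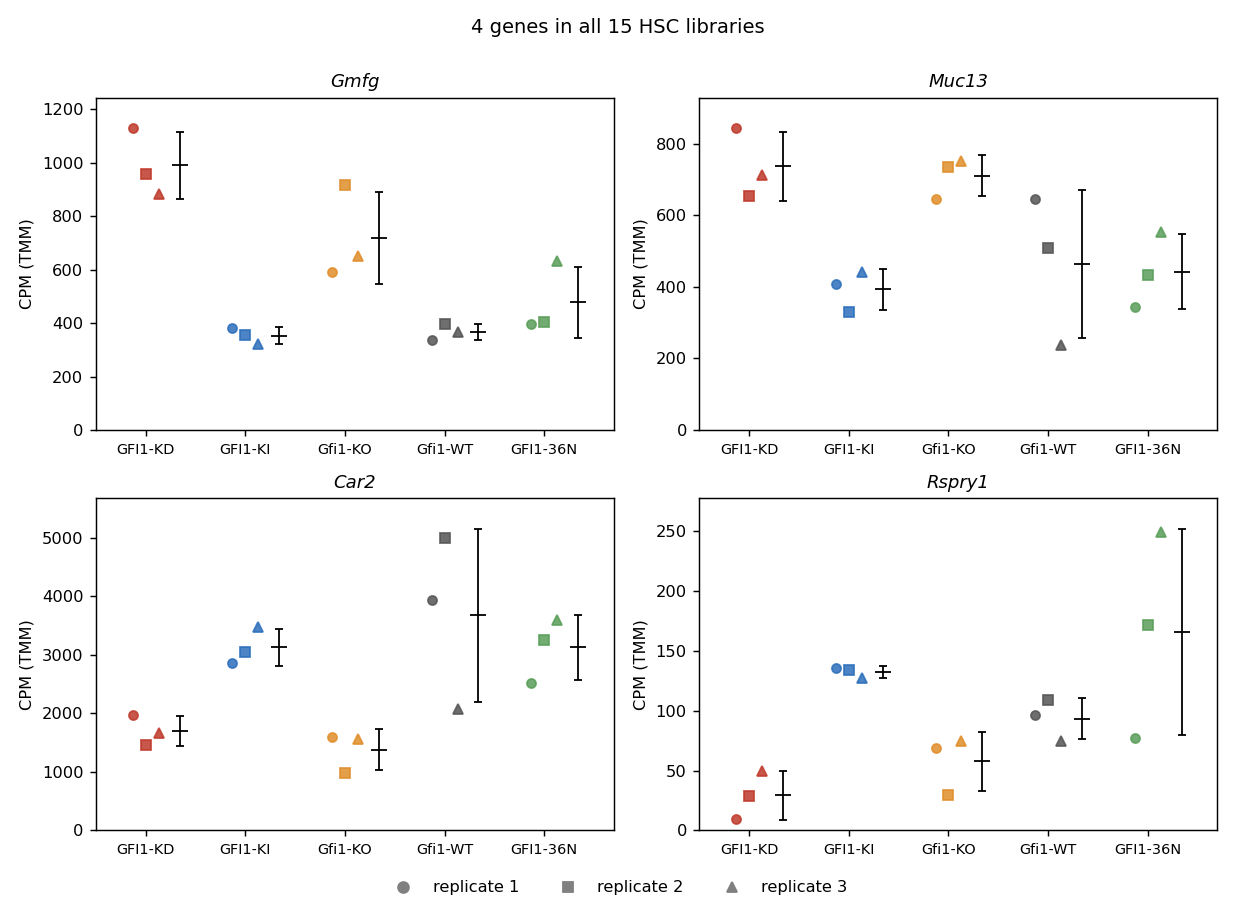
CPM (linear axes from 0) of Gmfg, Muc13, Car2 and Rspry1 in GFI1-KD, GFI1-KI, Gfi1-KO, Gfi1-WT and GFI1-36N libraries. Symbols are the 3 libraries of a genotype, and the bar beside them is the mean ± SD. Gfi1-KO libraries lie above Gfi1-WT for Gmfg (593 to 916 against 338 to 397 CPM) and below for Car2 (978 to 1600 against 2070 to 5000 CPM), on the side of GFI1-KD in each.

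By chromosome, the higher genes of at least 100 CPM were counted without overlap on each chromosome. On chromosome 5, which carries Gfi1, 9 of 120 such genes were higher without overlap (7.5%) and 5 lower (4.17%). Chromosome 7, with Gmfg, Tspan32, Ifitm2 and Eif3c, had 16 of 143 higher (11.2%) and 6.29% lower. Chromosome 8, with Cers4, had 12.7% higher and 6.86% lower. Over all genes of this level these shares were 6.89% and 5.24%. Chromosomes 7 and 8 are named as those with the highest shares on the higher side. That share ran down to 1.3% on chromosome 14, and was 9.9% on chromosome 15 and 9.71% on chromosome 17.

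Gene lists were described by counts and medians, beside all genes tested, of which 6652 were higher and 6664 lower (median log2 fold change 0). At an unadjusted p under 0.05, 0.988% of all genes tested were higher and 1.5% lower, the background for the counts at that p below. Among 63 genes of actin turnover, the group of Gmfg, 42 were higher and 21 lower (median 0.09), with 1 at an unadjusted p under 0.05 on each side. The median was 0 to 0.21 with 1 library left out in turn and 0.01 with Gfi1-WT as the control. The summed level of the list, Gmfg included, was 19200 to 20300 CPM in GFI1-KD and 17200 to 18100 CPM in GFI1-KI. Cfl1, which encodes cofilin, the main severing factor of actin filaments, was at 2050, 1680 and 1550 CPM in GFI1-KD and 1360, 1440 and 1410 CPM in GFI1-KI (log2 fold change 0.33, standard error 0.16). Diaph2, a formin that builds unbranched filaments, was at 1.29, 1.01 and 0.567 CPM in GFI1-KD and 10.3, 9.98 and 38.1 CPM in GFI1-KI, so that members of the list lay on both sides.

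Genes of the GFI1 complex and those ascribed to GFI1 as targets lay on both sides. Of 29 corepressors and partners, 18 were higher and 11 lower (median 0.18), and 1 was lower at an unadjusted p under 0.05. That was Runx1t1, which encodes the corepressor ETO, at 0.0615, 0.193 and 0 CPM in GFI1-KD and 94.2, 22 and 5.76 CPM in GFI1-KI (log2 fold change −8.78, standard error 3.03), with a range of 0 to 350 CPM over the other 9 libraries. Mta2 of the NuRD complex was at 5.54, 72 and 51.7 CPM in GFI1-KD and 78.3, 71.5 and 178 CPM in GFI1-KI, and Rcor2 of the CoREST complex at 28.3, 0 and 0.773 CPM in GFI1-KD and 0, 0.716 and 0 CPM in GFI1-KI, and both overlapped. Of 37 targets ascribed to GFI1, 19 were higher and 18 lower (median 0.03). The gene of M-CSF, Csf1, which GFI1 represses in granulocytic differentiation, was at 0, 1.83 and 1.08 CPM in GFI1-KD and 0 in GFI1-KI, a level at which 66% of genes had a library at 0. Its receptor gene Csf1r was at 0, 0 and 0.258 CPM in GFI1-KD and 0, 3.68 and 1.72 CPM in GFI1-KI. Egr1, an early growth response factor, was at 38.1, 67.2 and 77.8 CPM in GFI1-KD and 316, 62.4 and 92 CPM in GFI1-KI, where replicate 1 alone was high.

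Genes of HSC identity were balanced, with 28 of 57 higher and 29 lower (median −0.02), and 2 on each side at an unadjusted p under 0.05. Adgrg1, an adhesion receptor of stem cells, was at 481, 524 and 487 CPM in GFI1-KD and 286, 325 and 350 CPM in GFI1-KI (log2 fold change 0.63, standard error 0.28). Ifitm3, a relative of Ifitm2, was at 677, 664 and 532 CPM in GFI1-KD and 360, 354 and 468 CPM in GFI1-KI (log2 fold change 0.66, standard error 0.28). In neither gene did the genotypes overlap, but the other 9 libraries ran across both genotypes, from 158 to 536 CPM for Adgrg1 and from 361 to 809 CPM for Ifitm3. Cdkn1c, the inhibitor p57 of cell division, was at 0, 0 and 0.0515 CPM in GFI1-KD and 2.89, 0.0478 and 9.64 CPM in GFI1-KI, a low level in every library. Genes of the sort overlapped between the genotypes. Kit was at 401, 363 and 542 CPM in GFI1-KD and 824, 504 and 481 CPM in GFI1-KI, and Slamf1, which encodes CD150, at 75.3, 77.5 and 98.2 CPM in GFI1-KD and 9.58, 82.3 and 48.2 CPM in GFI1-KI. Cd48, whose product is absent from the sorted cells by design, was at 0, 22.4 and 3.35 CPM in GFI1-KD and 46.1, 19.8 and 11.6 CPM in GFI1-KI. Ly6a, which encodes Sca1, was at 29.8, 33.2 and 60.8 CPM in GFI1-KD and 43, 12.7 and 18 CPM in GFI1-KI. Cd34, Fcgr2b, Il7r, Itgam and Ptprc, further surface marker genes, overlapped as well, with Cd34 at 287, 351 and 397 CPM in GFI1-KD and 244, 338 and 238 CPM in GFI1-KI.

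Of 25 Ifitm and MHC genes, 16 were higher and 9 lower (median 0.21), with Ifitm2 and Ifitm3 higher at an unadjusted p under 0.05. Ifitm1 was at 834, 501 and 1170 CPM in GFI1-KD and 701, 285 and 252 CPM in GFI1-KI, which overlap. The median was −0.07 without GFI1-KD replicate 2 and −0.14 with Gfi1-WT as the control. With that control, the log2 fold changes of Ifitm1, Ifitm2 and Ifitm3 were 0.52, 0.06 and 0.08.

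Lineage genes differed in the number of members on each side, with most of the spread in single libraries. Of 24 erythroid genes 9 were higher and 15 lower (median −0.78), with 1 higher and 5 lower at an unadjusted p under 0.05. The median was 0.46 without GFI1-KI replicate 2 and 0.17 with Gfi1-WT as the control. Their summed level was 2430 to 3340 CPM in GFI1-KD and 3620 to 4520 CPM in GFI1-KI, of which Car2 made up the larger part in every library. Ermap, an antigen of red cells, was at 0.246, 0.193 and 0 CPM in GFI1-KD and 0.0535, 81.8 and 0.108 CPM in GFI1-KI, a difference that came from GFI1-KI replicate 2 alone. Car2 and Hemgn lay on opposite sides. The summed level of 9 erythroid markers without Car2 was 138 to 227 CPM in GFI1-KD and 72.9 to 430 CPM in GFI1-KI, and their part in the Car2 difference was not tested. In bulk libraries, fewer cells of a type and less RNA per cell cannot be told apart.

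Of 16 granulocyte genes 4 were higher and 12 lower (median −0.80), and of 19 monocyte and Fc receptor genes 7 were higher and 11 lower (median −0.62), with none at an unadjusted p under 0.05 in edgeR. Without GFI1-KI replicate 2 these medians were 0.50 and 0.22, and with Gfi1-WT as the control 0.28 and 0. The members with the lowest p were read mainly in GFI1-KI replicate 2. S100a9 was at 18.7 CPM, Mmp8 at 9.46, Fcgr3 at 22.6 and Ly86 at 7.21 CPM there, and each was listed at 0 in the 5 remaining libraries. Mpo, the peroxidase of granules, was at 53.7, 37.7 and 66.8 CPM in GFI1-KD and 0, 839 and 0 CPM in GFI1-KI. The summed level of 10 granulocyte markers was 177 to 374 CPM in GFI1-KD and 104 to 1350 CPM in GFI1-KI, highest in the same library. Without GFI1-KI replicate 2, the log2 fold change of Mpo was 12.88, against −2.41 with it.

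Of 28 megakaryocyte and platelet genes 17 were higher and 11 lower (median 0.42), with none at an unadjusted p under 0.05 in edgeR. Nfe2, a transcription factor of platelet formation, was at 106, 110 and 121 CPM in GFI1-KD and 259, 385 and 127 CPM in GFI1-KI (log2 fold change −1.19, standard error 0.59). The genotypes did not overlap, but the nearest libraries were almost level. Thbs1, which encodes thrombospondin 1 of platelet granules, was at 0, 3.85 and 0 CPM in GFI1-KD and 42.5, 17.1 and 15.3 CPM in GFI1-KI (log2 fold change −4.27, standard error 3.19). Megakaryocyte markers summed to 410 to 1440 CPM in GFI1-KD and 372 to 628 CPM in GFI1-KI.

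Of 7 tested T and NK cell genes 3 were higher and 4 lower (median −0.07), with 1 lower at an unadjusted p under 0.05 in edgeR, which was Cd247. Cd247, the zeta chain of the T cell receptor complex, was listed at 0 in GFI1-KD and averaged 3.18 ± 4.6 CPM in GFI1-KI, and Lef1, a factor of Wnt signalling, averaged 2.42 ± 0.845 CPM in GFI1-KD and 19.9 ± 30.1 CPM in GFI1-KI (SD, n = 3 each), and both overlapped. Nkg7, a protein of cytotoxic granules, was at 489, 425 and 409 CPM in GFI1-KD and 251, 227 and 264 CPM in GFI1-KI (log2 fold change 0.83, standard error 0.42). Cd3e, Cd3g, Trbc1, Trbc2 and Klrd1 were at 0 in all 6 libraries. The markers summed to 440 to 491 CPM in GFI1-KD and 242 to 275 CPM in GFI1-KI, most of it Nkg7.

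Of 36 immediate early and AP-1 genes 11 were higher and 25 lower (median −0.56), with 1 at an unadjusted p under 0.05, which was Myc. Nr4a1, an orphan nuclear receptor induced within minutes of a stimulus, was at 24, 19 and 5.51 CPM in GFI1-KD and 458, 19.2 and 60.6 CPM in GFI1-KI. The list summed to 2840 to 3050 CPM in GFI1-KD and 2650 to 5080 CPM in GFI1-KI, highest in GFI1-KI replicate 1, where Egr1 was high as well. Without that library the median was −0.21, and without GFI1-KD replicate 3 it was −1.29. Fosl1, an AP-1 subunit, was at 2.34 CPM in GFI1-KI replicate 2 and at 0 in the other 5 libraries of the 2 genotypes.

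Of 63 splicing factors 33 were higher and 30 lower (median 0.05), and 4 were lower at an unadjusted p under 0.05, among them Khdrbs3, Srsf10 and Srsf7. Of 53 adhesion and niche receptors 27 were higher and 26 lower (median 0.04). The mannose 6-phosphate receptor Igf2r was at 0.431, 0 and 0.103 CPM in GFI1-KD and 326, 7.55 and 16.1 CPM in GFI1-KI (log2 fold change −9.32, standard error 2.80), and it was also under 1.2 CPM in 7 of the other 9 libraries. The Wnt receptor Fzd4 was at 0, 0 and 0.0515 CPM in GFI1-KD and 40.7, 17.3 and 0 CPM in GFI1-KI, which overlap. A further 20 lists, that of T and NK cells among them, had medians from −0.61 to 0.21, and of their 767 tested members 4 were higher and 10 lower at an unadjusted p under 0.05. Over all genes tested these shares were 0.988% and 1.5%.

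**Figure D5:**
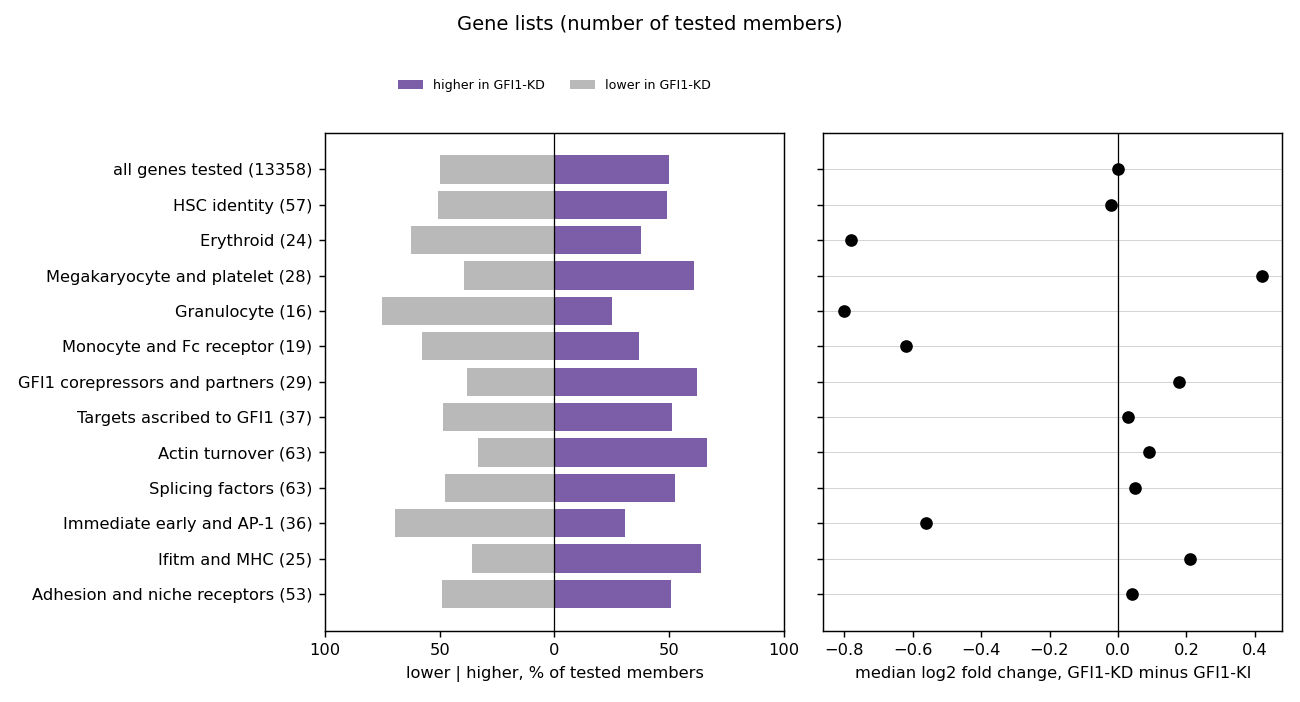
Gene lists with the number of tested members in brackets. Bars (left) give the percentage of tested members higher (right of 0) and lower (left of 0) in GFI1-KD than in GFI1-KI by log2 fold change whatever the p, and points (right) the median log2 fold change. Of the lists drawn, granulocyte and erythroid genes have the lowest medians (−0.80 and −0.78), megakaryocyte genes the highest (0.42), and all genes tested 0. The first 2 are above 0 without GFI1-KI replicate 2.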

How the data were processed

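Bulk RNA-seq of sorted HSCs was analysed for 6 libraries, 3 of GFI1-KD and 3 of GFI1-KI. Single-end reads had been quantified by the authors with Salmon on mouse cDNA of GRCm38, corrected for GC, sequence and positional bias. They deposited estimated counts per gene symbol and per transcript (TPM multiplied back by length and depth, so neither whole nor normalized between libraries). The submitters' processing notes name sleuth 0.30.0 and R 4.2.1. Columns were matched to labels by the library number that both carry (15 of 15), a match that no text states in words.

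The estimated counts were rounded and tested by the quasi-likelihood F test of edgeR 4.0.16 in R 4.3.3, after TMM scaling and filterByExpr (minimum count 10, total 15), with Benjamini-Hochberg adjustment at 0.05, with all 15 libraries in 1 model (10 residual degrees of freedom, common coefficient of variation 1.39). A row without a symbol held 0.0192 to 0.0657% of counts in the 6 libraries and was left out. Coordinates are from GENCODE M21, promoters from RefSeq (GRCm38.p6), and figures were drawn with matplotlib 3.10.9.

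Genes were named by rule. These were the genes with the lowest p on each side (8 each), the 8 per side with the lowest p among genes of at least 100 CPM without overlap, genes at 0 in 1 genotype, Gfi1 and 10 surface marker genes, and, for each of the 12 lists described, its 3 members of lowest p. A few genes that the rule selects are not reported here. Genes named outside it were picked after their values were seen. The members and the 35 lists (1314 of 1320 symbols found) were chosen with earlier results of these data known. Alternatives were the fit of the 6 libraries alone, a replicate block, leaving out each replicate, no filter, the filter of sleuth, upper-quartile and median-ratio scaling, Gfi1-WT as the control, limma-trend (limma 3.58.1), DESeq2 1.42.0 and, for Gfi1, summed transcripts. Leaving out GFI1-KD replicate 1 with GFI1-36N replicate 3 was added after seeing the data. Scripts were tested on simulated data. Intervals of fold changes are from the fit over libraries, and floors cover counting error only.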

Additional observations from a re-analysis of the deposited data

How the results depend on the processing

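No gene passed an adjusted p of 0.05 under any alternative except DESeq2, which called 163. At an unadjusted p under 0.05, 132 genes were higher and 201 lower in GFI1-KD. Without a filter these were 224 and 308, and with DESeq2 262 and 371, and with the filter of sleuth 118 were lower. Leaving out 1 library gave 65 to 272 higher (69 without GFI1-KI replicate 1, 272 without replicate 2 and 65 without replicate 3) and 83 to 286 lower (83 without GFI1-KD replicate 1 and 122 without replicate 2). The share of higher genes among them was 39.6%, but 60.3% without GFI1-KD replicate 1, 63.6% without GFI1-KI replicate 2 and 24.1% without GFI1-KI replicate 3, so that the side with more genes depends on single libraries. Scaling moved it little (41.2% with upper-quartile and 39.4% with median-ratio scaling).

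Replicate numbers did not pair the libraries, as deviations of same-numbered libraries correlated at 0.065, 0.049 and −0.02. With replicate number as a block, 113 genes were higher and 140 lower at an unadjusted p under 0.05, and 0 passed the adjusted threshold.

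Of 80 named genes tested, 67 did not turn to the other side under any alternative that tested them. The filter of sleuth tested 60 of the 80 and the fit of the 6 libraries 68. Some of the 67 fell to a log2 fold change of 0, which was not counted as a turn. These were Prkar1b, Ighm and Ly86 with Gfi1-WT as the control. Without GFI1-KI replicate 2 they were Fcgr3, S100a9, Mmp8, Ly86 and Fosl1. With Gfi1-WT as the control, the log2 fold change turned for Rab6b (−0.22), Kit (0.40), Cd48 (0.55), Fcgr2b (−0.18), Mpo (2.37), Nfe2 (0.52), Csf1 (−1.70), Psmb2 (−0.25) and Ubxn4 (0.18). Leaving out 1 library in turn, it ranged from −8.51 to 2.45 for Gfi1, −1.78 to 2.71 for Fcgr2b, −10.72 to 0.93 for Itgam, −0.04 to 0.43 for Ptprc, −2.97 to 12.88 for Mpo and −8.04 to 0.80 for Ermap, with Mpo and Ermap turned by leaving out GFI1-KI replicate 2. It turned for Ptprc also without both libraries far from the rest (−0.05), for Gfi1 (−0.11) and Mpo (2.47) in limma-trend, and for Mpo with the replicate block (6.23). The median of the monocyte and Fc receptor genes was −3.86 without GFI1-KD replicate 3. Apart from the choice of control and of libraries, the cause was not tested. Genes under 10 CPM were read least precisely, with a median standard error of 2.41, and the part of depth in this was not tested.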
